A study of Mus musculus with 9 samples.

Results

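Immunoglobulin genes are annotated as separate variable (V), diversity (D), joining (J) and constant (C) segments, and 155 of them were followed in RNA of M-MDSCs (monocytic myeloid-derived suppressor cells), which arise in tumours and dampen T cell responses. Segments were chosen by their measured level: a segment was taken when its annotated class was V, D, J or C of an immunoglobulin locus and its FPKM (reads per kilobase of gene and scaled to library size, a level per length) reached 1 in at least 1 of 9 libraries. The rule took 155 of 264 immunoglobulin genes of these classes, out of 54532 genes of all kinds. They were 129 of 218 V segments, 12 of 14 J segments, 11 of 13 C segments and 3 of 19 D segments. Because the levels themselves chose the segments, being expressed is no result about them, while no group entered the choice.

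The M-MDSCs had been sorted from mice that carried tumours of the colon carcinoma line MC38, and poly-A RNA was sequenced with a kit that keeps the strand. There were 3 groups of 3 libraries, from LILRB4+/+ SCG2-/- mice (SCG2 knockout), LILRB4+/+ mice (LILRB4) and WT mice, so SCG2 knockout and LILRB4 mice share the LILRB4+/+ genotype and all 3 groups bore the tumour. The labels give neither the LILRB4 allele, the promoter behind it, the sort gate, the age nor the mouse behind each library, so the spread between libraries may be technical. The series title concerns SCG2, the LILRB4 receptor and IL-6 signalling through STAT3.

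An antibody is built from heavy chains and from kappa or lambda light chains. In each B cell, 1 V segment is joined to a J segment (in the heavy chain through a D segment). The joined exon is spliced to a C segment, and the heavy C segment marks the antibody class. The V segment in a transcript shows which V segment its B cell joined, but different clones can join the same V segment. The joints between segments were not read, so V segments shared between libraries are not shown to be shared clones. Plasma cells, the antibody-secreting end stage of B cells, carry immunoglobulin transcripts in great excess over other RNAs. Monocytes do not join these segments, but bind antibody through Fc receptors.

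The segments lie in 3 loci. The heavy chain locus gave 79 segments (65 V), at chr12:113254830-116000461, the kappa locus 67 segments (61 V), at chr6:67609713-70726966, and the lambda locus 9 segments (3 V), at chr16:19061618-19260859. Positions are on GRCm38, whose annotation matched the deposited coordinates of all 155 segments at both ends. The sequences that follow are from the GENCODE M21 transcripts of that build, printed 5′ to 3′ along the gene. For 9 of the V segments that the results turn on, the last 60 bases of the V exon are shown, because the join is made there. Capitals mark TANTNCTGN (coding strand), the letters of a conserved tyrosine and cysteine before the joint.
Ighv11-2 (chr12:114048241-114048300, minus strand): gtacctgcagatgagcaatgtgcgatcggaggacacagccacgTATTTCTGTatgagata
Igkv14-126 (chr6:67896583-67896642, plus strand): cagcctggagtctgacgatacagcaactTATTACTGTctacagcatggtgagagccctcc
Ighv14-1 (chr12:113931953-113932012, minus strand): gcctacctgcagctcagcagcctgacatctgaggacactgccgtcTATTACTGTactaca
Igkv12-41 (chr6:69858420-69858479, minus strand): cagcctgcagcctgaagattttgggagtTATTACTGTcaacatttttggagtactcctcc
Ighv5-12 (chr12:113702124-113702183, minus strand): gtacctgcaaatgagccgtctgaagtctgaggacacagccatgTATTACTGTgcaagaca
Ighv9-1 (chr12:114093928-114093987, minus strand): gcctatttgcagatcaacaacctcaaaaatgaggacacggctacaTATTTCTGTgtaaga
Igkv8-18 (chr6:70356386-70356445, plus strand): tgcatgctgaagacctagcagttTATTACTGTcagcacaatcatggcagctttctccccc
Ighv14-4 (chr12:114176438-114176497, minus strand): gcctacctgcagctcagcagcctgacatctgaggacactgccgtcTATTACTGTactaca
Ighv1-85 (chr12:116000028-116000087, minus strand): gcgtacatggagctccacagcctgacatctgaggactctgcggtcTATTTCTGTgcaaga

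The letters TANTNCTGN stood in the last 60 bases of 120 of the 129 V segments (93.0%), of 76 of the 89 V genes that did not reach 1 FPKM (85.4%) and of 71 of 155 V pseudogenes (45.8%). None of these 155 V pseudogenes reached 1 FPKM, and only 8 of them had any read, 23 reads in all. Ighv14-1 and Ighv14-4 end in the same 60 bases and are 97.4% identical over their transcripts, so the counting could split their reads only where they differ. Near copies are common: 64 of the 129 V segments had another V gene at 95% identity or more, and 8 at 98% or more. Ighv11-2 and Ighv11-1 were 98.9% identical, and Ighv11-1 had 1 read in the 9 libraries. How reads that fit several copies were handled is not given in the sources used here, so each count of a V segment is uncertain to that extent.

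The J segments are shown because their shortness sets how they can be read. Capitals mark the codons of the Trp-Gly-X-Gly motif in heavy J segments and of the Phe-Gly-X-Gly motif in light J segments (coding strand only), where X is any residue and the first codons were searched as TGGGG and TTCGG.
Ighj1 (chr12:113429781-113429833, minus strand): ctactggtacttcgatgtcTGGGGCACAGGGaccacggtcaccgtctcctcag
Ighj2 (chr12:113429468-113429515, minus strand): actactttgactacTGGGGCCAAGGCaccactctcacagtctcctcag
Ighj3 (chr12:113429085-113429132, minus strand): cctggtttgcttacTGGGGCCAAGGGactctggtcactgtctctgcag
Ighj4 (chr12:113428514-113428567, minus strand): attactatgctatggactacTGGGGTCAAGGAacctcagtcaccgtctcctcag
Igkj1 (chr6:70722562-70722599, plus strand): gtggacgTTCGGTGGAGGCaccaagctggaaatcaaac
Igkj2 (chr6:70722916-70722954, plus strand): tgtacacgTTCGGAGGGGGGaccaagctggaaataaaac
Igkj3 (chr6:70723223-70723260, plus strand): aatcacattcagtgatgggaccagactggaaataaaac
Igkj4 (chr6:70723548-70723585, plus strand): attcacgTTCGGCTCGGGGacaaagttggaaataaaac
Igkj5 (chr6:70723886-70723923, plus strand): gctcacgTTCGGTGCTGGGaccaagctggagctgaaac
Iglj1 (chr16:19063225-19063262, minus strand): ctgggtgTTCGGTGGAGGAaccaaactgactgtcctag
Iglj3 (chr16:19067041-19067078, minus strand): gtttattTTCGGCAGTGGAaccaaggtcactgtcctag

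The transcripts of Ighj2, Igkj2 and Igkj5 are 48, 39 and 38 bases, shorter than their deposited gene lengths of 100, 43 and 42 bases, and only the transcript is printed. All 4 heavy J segments held their letters, as did 4 of 5 kappa and 2 of 3 lambda J segments. Igkj3, which is known as a non-functional kappa J segment of the mouse, did not. A segment of 38 bases reaches 0.994 to 1.60 FPKM with a single read, depending on the library. Of the 12 J segments, 7 had fewer than 10 reads in their best library, and the 3 D segments rested on 1 read each. The D segment Ighd4-1, of 11 bases, shows the extreme.
Ighd4-1 (chr12:113430528-113430538, minus strand): ctaactgggac

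Ighd4-1 reached 5.31 FPKM on 1 read in SCG2 knockout replicate 2, while Ighd3-1 reached 3.58 FPKM in SCG2 knockout replicate 3 and Ighd1-1 2.03 FPKM in WT replicate 1. D and J levels are therefore given as reads, and most results rest on C and V segments. Just inside the threshold were Ighv7-4 at a highest value of 1.07 FPKM, Ighv1-52 at 1.09 FPKM and the C segment Ighd at 1.18 FPKM. Just outside were Ighv2-2 at 0.932 FPKM, Ighv1-5 at 0.887 FPKM and Igkv11-125 at 0.775 FPKM.

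Libraries held 15004944 to 28070495 reads over all genes, so that a count of 0 allows up to 3 reads, which covers counting error only. The labels were checked on the targeted genes. Scg2, the gene removed in the SCG2 knockout mice, had 0 reads in the 3 SCG2 knockout libraries, 1, 0 and 0 in LILRB4 and 1, 0 and 0 in WT, so its absence checks nothing at this level. Lilrb4a, a mouse LILRB4 gene, had 131, 146 and 157 FPKM in SCG2 knockout, 274, 154 and 160 FPKM in LILRB4 and 138, 47.7 and 74.0 FPKM in WT. Monocyte genes marked all libraries, with Cd14 the most abundant of the list and Ly6c2 and Csf1r detected in each.

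The libraries did not sort by group in their V segments. The overlap of 2 profiles, that is the share of V reads that fall on the same segments in the same proportion, was 70.5% between SCG2 knockout replicate 2 and WT replicate 3, 70.0% between WT replicates 2 and 3, and 68.3% between LILRB4 replicates 1 and 3. SCG2 knockout replicates 2 and 1 also overlapped WT replicate 2 by 59.3% and 52.5%, more than the 42.9% by which they overlapped each other. WT replicate 1 overlapped its own group by 41.6% and 42.7%. LILRB4 replicate 2 stood apart, at 4.76% to 21.7% with every other library, and held only 272 V reads. The V segments of T cell receptors, other genes joined once per clone, gave 73.2%, 50.5% and 70.3% for the first 3 pairs, but also 70.2% between SCG2 knockout replicate 2 and LILRB4 replicate 1, and 45.3% to 55.0% for LILRB4 replicate 2.

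**Figure D1:**
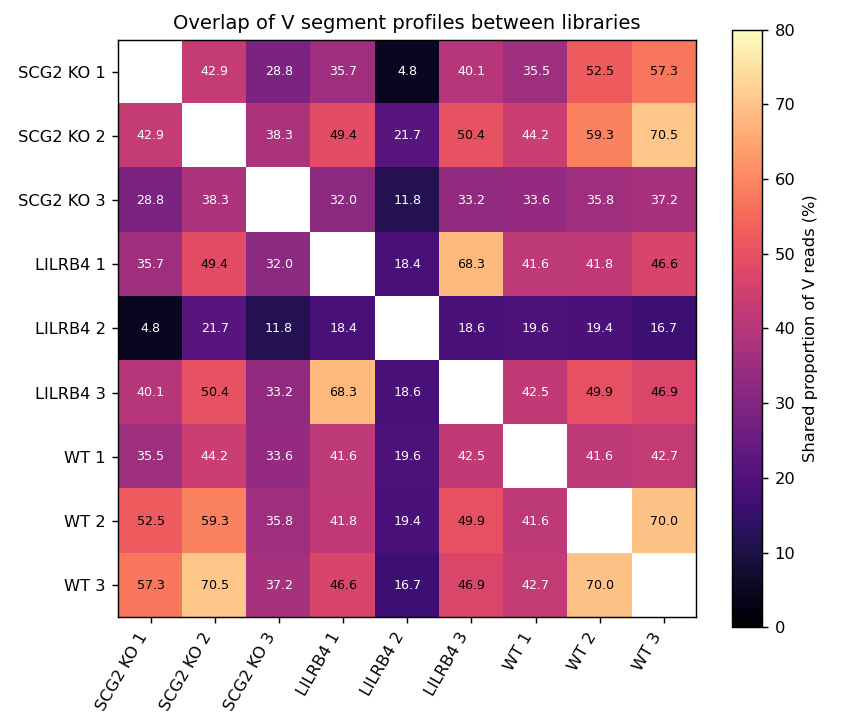
Overlap of V segment profiles between all pairs of the 9 libraries, as the share of V reads in common (%), with libraries named on both axes. The bright cells pair SCG2 knockout replicate 2 with WT replicate 3 (70.5%), WT replicates 2 and 3 (70.0%) and LILRB4 replicates 1 and 3 (68.3%), and the dark row is LILRB4 replicate 2.

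A set of 17 V segments had 10 or more reads in an SCG2 knockout library and none in any LILRB4 library, a choice made from these reads that fixes the SCG2 knockout and LILRB4 values. The WT libraries, which the choice did not use, differed among themselves. The 17 segments held 2.78% of V reads in WT replicate 1 (162 of 5817, 95% Wilson interval 2.39% to 3.24%), 11.8% in WT replicate 2 (60 of 510, 9.25% to 14.9%) and 12.5% in WT replicate 3 (103 of 823, 10.4% to 15.0%). Of the 17, 16 had reads in WT replicate 2 or 3 and 6 in WT replicate 1. They held 25.3%, 10.2% and 36.5% of V reads in the SCG2 knockout libraries that chose them. Conversely, 14 segments had 10 or more reads in a LILRB4 library and none in SCG2 knockout, and they held 4.64% of V reads in WT replicate 1 (270 reads on 3 segments) and none in WT replicates 2 and 3, where 0 of 510 and 0 of 823 reads allow shares up to 0.748% and 0.465%. So WT replicates 2 and 3 carried V segments of the SCG2 knockout libraries and none of the LILRB4 set, and WT replicate 1 carried some of both. Intervals cover counting error only, since reads of 1 clone are not independent.

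**Figure D2:**
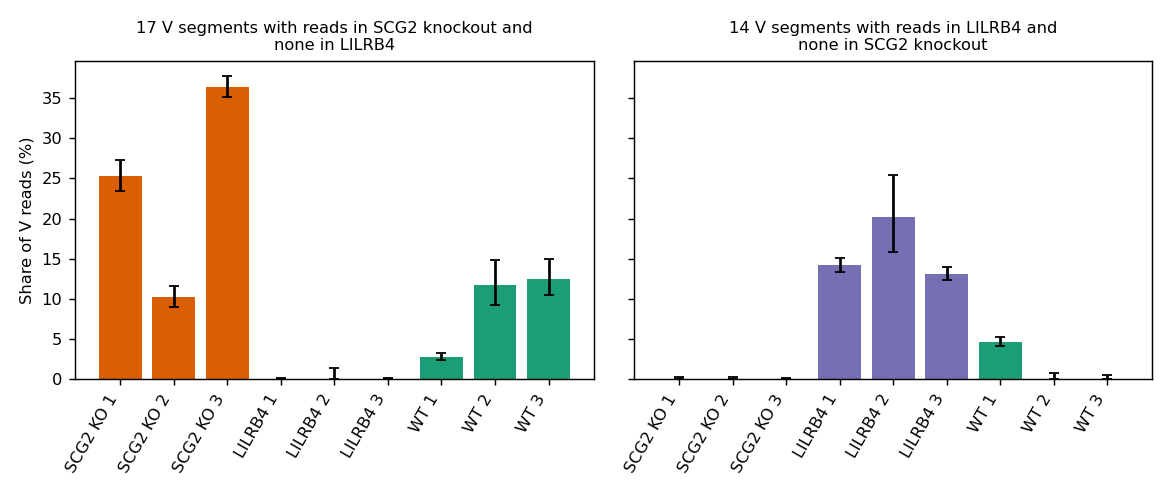
Share of V reads (%) on the 17 V segments found in SCG2 knockout and not in LILRB4 (left) and on the 14 found in LILRB4 and not in SCG2 knockout (right), by library, with 95% Wilson intervals. The values of SCG2 knockout and LILRB4 follow from the choice of segments; WT replicates 2 and 3 reach 11.8% and 12.5% on the left and 0 on the right.

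Another gene split the WT libraries the same way. Lyz2, the lysozyme of myeloid cells and a gene singled out after its values were seen, had 849, 342 and 252 FPKM in SCG2 knockout, 11.4, 18.6 and 16.6 FPKM in LILRB4, and 11.8, 79.1 and 109 FPKM in WT. SCG2 knockout libraries were above all others, and WT replicates 2 and 3 lay between them and WT replicate 1, which sat with LILRB4. Whether RNA, reads or labels were shared between libraries was not tested, and comparisons with WT were also fitted with WT replicate 1 as the lone WT library. By Lilrb4a, however, WT replicate 1 (138 FPKM) was the WT library nearest the LILRB4+/+ groups.

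The summed immunoglobulin level did not separate the groups. It was 769.7, 765 and 2098 FPKM in SCG2 knockout, 2226, 93.9 and 1879 FPKM in LILRB4, and 1750.4, 174 and 285 FPKM in WT. SCG2 knockout replicate 3, LILRB4 replicates 1 and 3 and WT replicate 1 were high, LILRB4 replicate 2 was the lowest of all, and the 3 groups overlapped. Means were 1211 ± 768, 1400 ± 1144 and 736 ± 880 FPKM in SCG2 knockout, LILRB4 and WT (SD, n = 3 each), so the spread within a group was as large as any difference between them. With 3 libraries against 3, an exact permutation test cannot go below 0.1, and none was run on the sum. In reads, the segments took 0.0625%, 0.0613% and 0.185% of all reads in SCG2 knockout, 0.172%, 0.00790% and 0.146% in LILRB4, and 0.157%, 0.0154% and 0.0255% in WT. A smaller number of antibody-making cells and less antibody RNA per cell cannot be told apart in such bulk libraries.

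The C segments carried most of the reads, 133074 of them, against 28564 on V segments, 335 on J segments and 3 on D segments. Igkc, the constant part of the kappa light chain (chr6:70726435-70726966), had the highest mean level, with 276, 205 and 576 FPKM in SCG2 knockout, 649.5, 34.3 and 678 FPKM in LILRB4, and 530.2, 62.4 and 91.9 FPKM in WT. Ighm, the mu heavy chain of IgM (chr12:113418558-113422730), followed with 117, 129 and 527 FPKM in SCG2 knockout, 385, 13.0 and 368 FPKM in LILRB4, and 269, 36.1 and 53.2 FPKM in WT. Both genes ranked the libraries much as the sum did, with SCG2 knockout replicate 3, LILRB4 replicates 1 and 3 and WT replicate 1 high, and the groups overlapped. The log2 fold change on the log2(FPKM + 1) scale was 0.77 for Igkc (SE 1.23) and 0.63 for Ighm (SE 1.36) in LILRB4 against WT, with limma adjusted p of 0.766 and 0.833. In SCG2 knockout against LILRB4 it was 0.36 (SE 1.23) and 0.67 (SE 1.36), with limma adjusted p of 0.954 and 0.917, and in SCG2 knockout against WT 1.13 and 1.30 with the same standard errors and limma adjusted p of 0.668 and 0.654. Leaving out 1 library turned the direction of SCG2 knockout against LILRB4, with a range of -1.05 to 1.08 for Igkc and -0.91 to 1.48 for Ighm, and the mean FPKM of Igkc was lower in SCG2 knockout (352 ± 197) than in LILRB4 (454 ± 364, SD, n = 3 each). With WT replicate 1 as the lone WT library, chosen after seeing the data, the differences from WT turned negative: -1.09 for Igkc and -1.10 for Ighm in LILRB4, and -0.73 and -0.43 in SCG2 knockout.

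**Figure D3:**
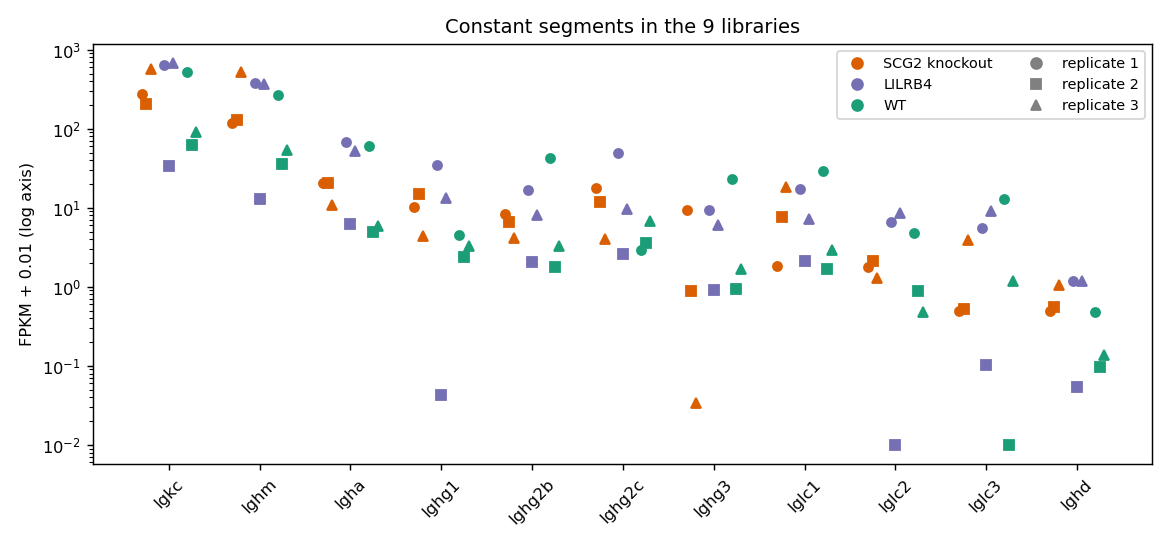
FPKM plus 0.01 (log axis) of the 11 C segments, with 1 point per library, coloured by group (SCG2 knockout, LILRB4, WT from left to right within each gene) and shaped by replicate number. The groups overlap for each gene except Ighd, where all SCG2 knockout points lie above all WT points. LILRB4 replicate 2 and WT replicates 2 and 3 are low for Igkc and Ighm.

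The heavy C segments show which antibody classes were present. Igha, the alpha chain of IgA, had 20.8, 20.9 and 10.7 FPKM in SCG2 knockout, 67.5, 6.27 and 52.4 FPKM in LILRB4, and 61.3, 4.92 and 5.90 FPKM in WT. Ighg2b, a chain of IgG2b, had 8.37, 6.52 and 4.12 FPKM in SCG2 knockout, 16.7, 2.03 and 8.17 FPKM in LILRB4, and 43.0, 1.75 and 3.28 FPKM in WT. Ighg2c, a chain of IgG2c, had 18.0, 11.7 and 3.998 FPKM in SCG2 knockout, 49.2, 2.60 and 9.52 FPKM in LILRB4, and 2.95, 3.61 and 6.74 FPKM in WT. WT replicate 1 was thus the highest library for Ighg2b and among the lowest for Ighg2c, while the groups overlapped for all 3 chains. Ighg1, a chain of IgG1, had 10.1, 14.9 and 4.35 FPKM in SCG2 knockout, 34.3, 0.0325 and 13.2 FPKM in LILRB4, and 4.55, 2.36 and 3.30 FPKM in WT. Ighg3, a chain of IgG3, had 9.43, 0.883 and 0.0243 FPKM in SCG2 knockout, 9.37, 0.905 and 6.03 FPKM in LILRB4, and 22.9, 0.927 and 1.68 FPKM in WT. The near absences were counted: Ighg1 had 2 reads in LILRB4 replicate 2, and Ighg3 had 1 read in SCG2 knockout replicate 3. Ighd, the delta chain of IgD that naive B cells carry beside IgM, was the weakest, with 0.489, 0.553 and 1.06 FPKM in SCG2 knockout, 1.18, 0.0443 and 1.17 FPKM in LILRB4, and 0.466, 0.0875 and 0.128 FPKM in WT. All 3 SCG2 knockout values lay above all 3 WT values for Ighd, which did not pass the test (log2 difference 0.47, SE 0.31, limma adjusted p = 0.508). Ighe, the epsilon chain of IgE, had no read in any library.

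As a share of the summed heavy C level, Ighm made up 63.5%, 70.0% and 95.6% in SCG2 knockout, 68.3%, 52.3% and 80.2% in LILRB4, and 66.6%, 72.5% and 71.7% in WT. SCG2 knockout replicate 3 was nearly all mu, and the groups overlapped. The IgG and IgA chains, which a B cell makes after class switching, together made up 36.2%, 29.7% and 4.21% in SCG2 knockout, 31.4%, 47.5% and 19.5% in LILRB4, and 33.3%, 27.3% and 28.2% in WT. Igha gave the largest part of it in LILRB4 replicate 2, at 25.1% of the heavy C level. Near-identical stretches of the IgG chains make their split between Ighg2b and Ighg2c uncertain to the extent that the counting shared reads.

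**Figure D4:**
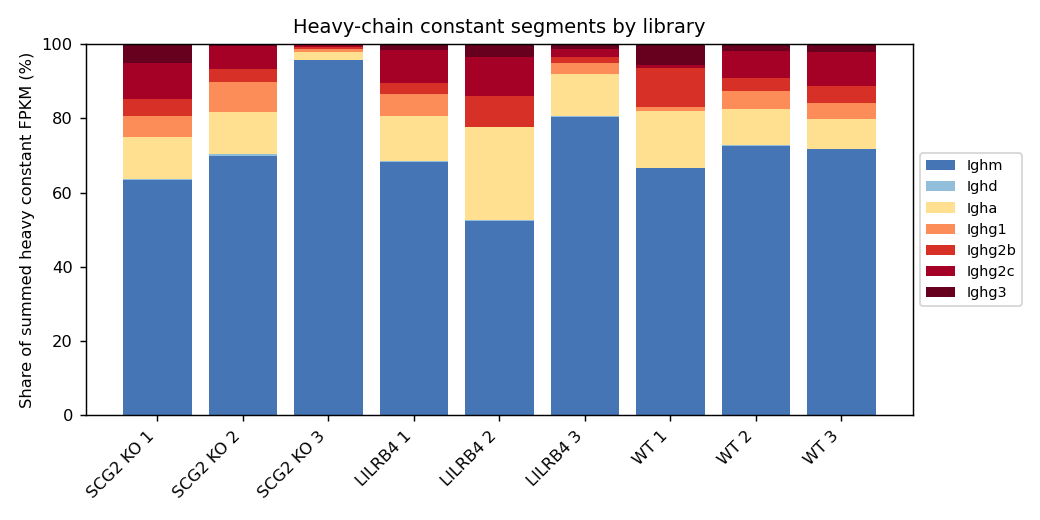
Share of the summed FPKM of heavy C segments (%) by library, stacked by segment from Ighm at the bottom. Ighm takes 95.6% in SCG2 knockout replicate 3 and 52.3% in LILRB4 replicate 2, with the other libraries between 63.5% and 80.2%.

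Light chains were mostly kappa. The lambda C segments Iglc1, Iglc2 and Iglc3 together made up 1.46%, 4.75% and 3.94% of the light C level in SCG2 knockout, 4.33%, 6.10% and 3.55% in LILRB4, and 8.14%, 3.90% and 4.72% in WT. Iglc1 had 1.81, 7.59 and 18.4 FPKM in SCG2 knockout, 17.3, 2.13 and 7.24 FPKM in LILRB4, and 29.3, 1.65 and 2.89 FPKM in WT. The lambda share was highest in WT replicate 1 and lowest in SCG2 knockout replicate 1, with overlap between groups. Iglc2 ranged from 0 FPKM in LILRB4 replicate 2 to 8.64 FPKM in LILRB4 replicate 3, and Iglc3 from 0 FPKM in WT replicate 2 to 12.9 FPKM in WT replicate 1. Iglc4, Iglj2 and Iglj4 had no read anywhere.

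Every C class came with V reads, at 7.75 to 15.0 heavy V reads per 100 heavy C reads, 30.9 to 54.1 for kappa and 61.3 to 109.5 for lambda. LILRB4 replicate 2 and WT replicate 2 were the lowest for heavy chains, at 7.84 and 7.75. Reads on the J segments were few. Ighj3 led with 1, 24 and 18 reads in SCG2 knockout, 22, 0 and 3 in LILRB4, and 5, 0 and 0 in WT, and Ighj4 had 13, 9 and 13 reads in SCG2 knockout, 14, 0 and 10 in LILRB4, and 5, 2 and 6 in WT. Ighj1 had 5, 3 and 7 reads in SCG2 knockout, 8, 0 and 22 in LILRB4, and 7, 0 and 2 in WT. The lowest J counts were in LILRB4 replicate 2 and WT replicates 2 and 3, and the other 9 J segments had at most 14 reads in a library.

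The same V segments led most libraries, in all 3 groups. Ighv11-2 was the leading heavy V segment in 6 of 9 libraries and Igkv14-126 the leading kappa V segment in 7 of 9. As background, Ighv11-2 and Igkv14-126 code for the VH11 and Vκ9 chains, a pair that mouse B-1a cells use to bind phosphatidylcholine and that is made with little variation from mouse to mouse. Ighv11-2 had 279, 185 and 435 reads in SCG2 knockout, 446, 1 and 630 in LILRB4, and 341, 43 and 86 in WT. Igkv14-126 had 273, 223 and 594 reads in SCG2 knockout, 531, 0 and 1046 in LILRB4, and 668, 81 and 116 in WT. LILRB4 replicate 2 was the only library without the pair, at 1 read of 98 heavy V reads (1.02%, 95% Wilson interval 0.180% to 5.56%) and 0 of 155 kappa V reads, which allows up to 2.42% by that interval. In the other 8 libraries, Ighv11-2 took 14.7% to 27.3% of heavy V reads and Igkv14-126 19.9% to 32.9% of kappa V reads, with 0.978 to 1.96 reads of Igkv14-126 for each read of Ighv11-2. The second such pair known from B-1a cells, Ighv12-3 with Igkv4-91, was rarer, at no more than 1.46% of heavy and 4.77% of kappa V reads.

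**Figure D5:**
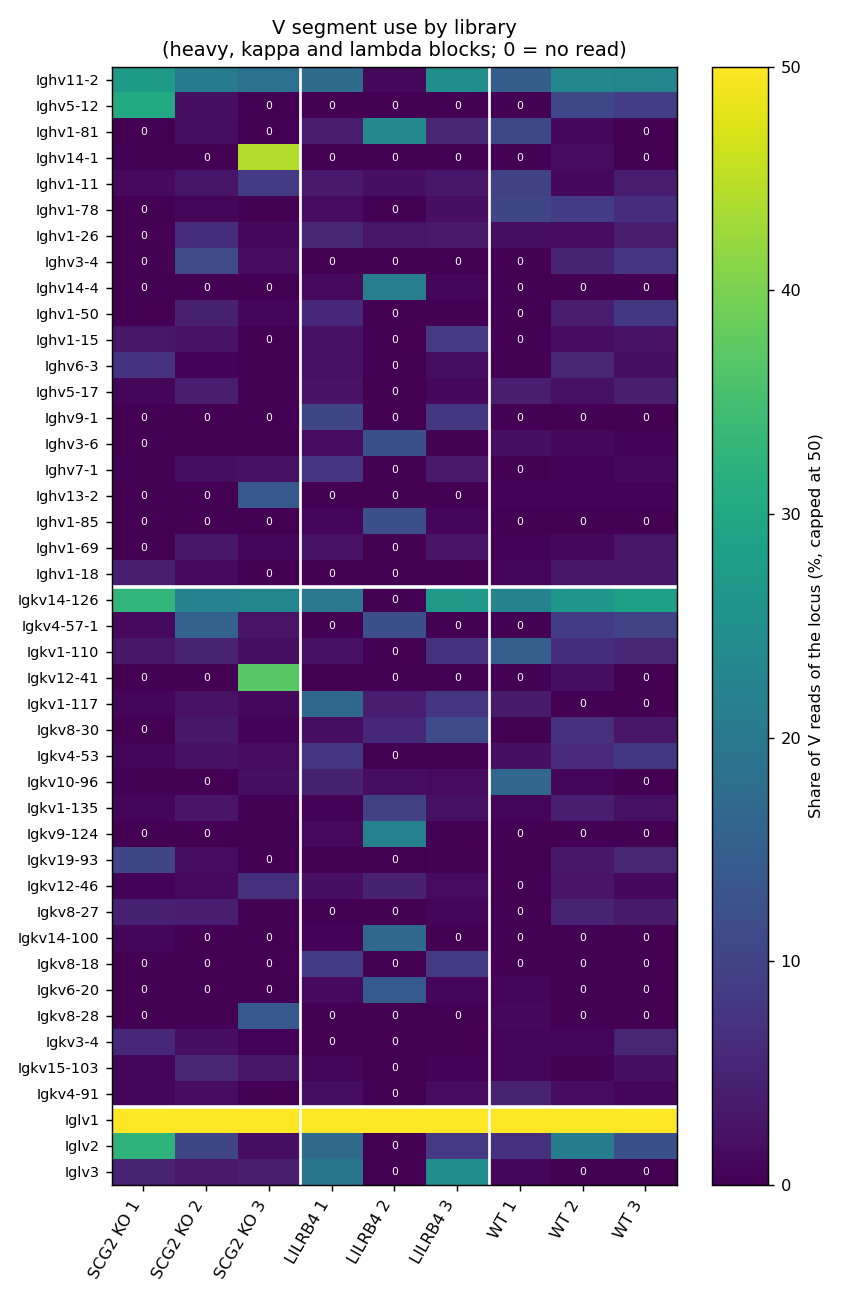
Share of V reads of the locus (%, colour, capped at 50) for the 20 heavy, 20 kappa and 3 lambda V segments with the highest mean share, by library; a 0 marks no read. Ighv11-2 and Igkv14-126 are bright in 8 libraries and missing or nearly so in LILRB4 replicate 2, and Ighv14-1 and Igkv12-41 are bright in SCG2 knockout replicate 3 alone.

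Beyond that pair, single libraries were led by other V segments. In SCG2 knockout replicate 3, Ighv14-1 took 44.2% of heavy V reads (1054 of 2387, 95% Wilson interval 42.2% to 46.2%) and Igkv12-41 took 37.0% of kappa V reads (959 of 2594, 35.1% to 38.8%). Elsewhere Ighv14-1 had 3 reads in SCG2 knockout replicate 1 and 3 in WT replicate 2, and Igkv12-41 had 2 in LILRB4 replicate 1 and 6 in WT replicate 2. This is also the library that was 95.6% mu among heavy C segments. The same library held 329 reads of Ighv13-2 and 355 of Igkv8-28, segments with at most 11 and 31 reads in any other. In SCG2 knockout replicate 1, Ighv5-12 led with 312 reads (30.5% of heavy V reads, 27.8% to 33.4%). Ighv5-12 had 19 reads in SCG2 knockout replicate 2 and 0 in replicate 3, 0, 0 and 0 in LILRB4, and 0, 20 and 34 in WT. It thus made up 10.8% and 9.09% of heavy V reads in WT replicates 2 and 3. LILRB4 replicate 2, with 98 heavy and 155 kappa V reads, was led by Ighv1-81 (23 reads) and Igkv9-124 (34 reads).

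The remaining abundant V segments were spread as unevenly. Igkv1-117 had 0.812, 3.47 and 4.37 FPKM in SCG2 knockout, 67.6, 0.626 and 27.2 FPKM in LILRB4, and 12.6, 0 and 0 FPKM in WT. Igkv1-110 had 3.41, 7.43 and 8.20 FPKM in SCG2 knockout, 9.26, 0 and 26.5 FPKM in LILRB4, and 52.2, 2.07 and 2.54 FPKM in WT. Igkv10-96 had 0.305, 0 and 8.15 FPKM in SCG2 knockout, 20.7, 0.352 and 5.68 FPKM in LILRB4, and 63.6, 0.232 and 0 FPKM in WT. Each of these kappa V segments peaked in 1 library and overlapped between groups. Among heavy V segments, Ighv1-11 had 1.87, 4.16 and 34.9 FPKM in SCG2 knockout, 14.7, 0.240 and 8.40 FPKM in LILRB4, and 29.8, 0.237 and 1.94 FPKM in WT. Ighv1-81 had 0, 2.66 and 0 FPKM in SCG2 knockout, 18.0, 2.76 and 14.4 FPKM in LILRB4, and 33.5, 0.237 and 0 FPKM in WT. The lambda V segment Iglv1, the leading lambda V segment in all 9 libraries, had 3.50, 11.05 and 28.0 FPKM in SCG2 knockout, 24.4, 2.05 and 15.7 FPKM in LILRB4, and 56.9, 1.59 and 4.47 FPKM in WT, with overlap between the groups. Iglv2 stayed at or below 7.15 FPKM and Iglv3 at or below 7.67 FPKM.

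Few V segments were found everywhere. Of the 129, 4 (Ighv11-2, Iglv1, Ighv1-11 and Igkv1-135) had reads in all 9 libraries and 6 in 1 library only. SCG2 knockout libraries together had reads on 110, LILRB4 on 103 and WT on 106 of the 129. The evenness of use also differed between libraries: the effective number of heavy V segments (the inverse of the summed squared shares) was 5.54, 13.5 and 3.91 in SCG2 knockout, 14.9, 6.79 and 10.99 in LILRB4, and 13.6, 10.97 and 11.2 in WT. The low values belong to SCG2 knockout replicates 1 and 3, each led by a segment of its own, and to LILRB4 replicate 2, which had 98 heavy V reads.

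LILRB4 replicates 1 and 3 shared segments that no SCG2 knockout or WT library held. Ighv9-1 had 263, 0 and 204 reads in LILRB4 and 0 in all 6 other libraries, 10.4% and 8.03% of heavy V reads in replicates 1 and 3. Igkv8-18 had 233, 0 and 327 reads in LILRB4 and 0 in all 6 others, 8.73% and 8.48% of kappa V reads. LILRB4 replicate 2 held neither, and of the 14 segments of the LILRB4 set 11 had reads in both LILRB4 replicates 1 and 3 while 3 had reads in all 3 LILRB4 libraries. Igkv8-18 is 97.8% identical to Igkv8-26.

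Across all 14574 genes tested, 67 were higher in LILRB4 than in WT (0.46%) and 8 lower (0.0549%) at a limma adjusted p under 0.05, or 0.515% in either direction. Of the 155 segments, 2 were among the higher and 0 among the lower. An unadjusted p under 0.05 was met by 1406 genes with higher and 1231 with lower values, 20 and 2 of them segments. Ighv14-4 had 0, 0 and 0 reads in SCG2 knockout, 33, 21 and 21 in LILRB4 (5.72, 2.52 and 2.26 FPKM), and 0, 0 and 0 in WT. Ighv1-85 had 0, 0 and 0 reads in SCG2 knockout, 17, 12 and 19 in LILRB4 (2.95, 1.44 and 2.05 FPKM), and 0, 0 and 0 in WT. All LILRB4 libraries, replicate 2 with its few immunoglobulin reads included, held both segments, and no other library held a read of either. The log2 difference on the log2(FPKM + 1) scale was 2.09 for Ighv14-4 (SE 0.27, limma adjusted p = 0.0276) and 1.62 for Ighv1-85 (SE 0.21, limma adjusted p = 0.0300). Against a floor of 3 reads over the 3 WT libraries, the pooled LILRB4 reads, scaled to library size, were at least 22.3-fold higher for Ighv14-4 and at least 14.3-fold higher for Ighv1-85.

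Both reached the 1 FPKM rule through LILRB4 libraries alone, so a difference of this kind was built into their being listed. The near copy Ighv14-1 had 1054 reads in SCG2 knockout replicate 3, where Ighv14-4 had 0. The log2 difference ran from 1.76 to 2.28 for Ighv14-4 and from 1.45 to 1.79 for Ighv1-85 when any 1 library was left out, while the calls did not all hold. They held without LILRB4 replicate 2 (limma adjusted p of 0.0221 for Ighv14-4 and 0.0173 for Ighv1-85) and without each SCG2 knockout library (0.0390 to 0.0473 over both). The limma adjusted p of Ighv14-4 was 0.110 without LILRB4 replicate 1, 0.0854 without LILRB4 replicate 3, and 0.0625, 0.103 and 0.124 without WT replicates 1, 2 and 3. For Ighv1-85 it was 0.125, 0.0963, 0.0631, 0.107 and 0.124 in the same order. With WT replicate 1 as the lone WT library it was 0.343 for each. Over all alternatives it ran from 0.000661 to 0.343 for Ighv14-4 and from 0.00681 to 0.343 for Ighv1-85. On recovered reads, edgeR called 0 of the 155 in this comparison (135 genes higher, 0.926%, and 24 lower, 0.165%). DESeq2 gave an adjusted p for 114 of the 155 and called 6 higher and 3 lower, Ighv14-4 and Ighv1-85 among the higher. Over all genes DESeq2 called 676 higher (4.93%) and 294 lower (2.14%).

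The number of calls depended on LILRB4 replicate 2. Without it, 17 segments were higher in LILRB4 than in WT, where 241 genes were (1.65%). They included Igkv8-18 (log2 difference 5.11, limma adjusted p = 1.32e-06), Ighv9-1 (5.03, limma adjusted p = 0.000166), Ighv8-12 (4.12, limma adjusted p = 0.000336) and the lambda V segment Iglv3 (2.72, limma adjusted p = 0.0128). These are segments that LILRB4 replicates 1 and 3 share, and segments of 1 clone or 1 sample move together, so the 17 are not separate observations. Among the 17, at least Igkv8-18, Ighv9-1, Ighv8-12, Ighv5-9, Ighv5-9-1, Igkv6-32, Ighv1-54, Ighv1-80 and Igkv1-88 reached 1 FPKM through LILRB4 replicates 1 and 3 alone. All of these were at 0 in the library left out, so their small p follows from that choice and supports nothing. Ighv1-64 was listed in the same way and had 1 read in that library, so the same limit applies to it. The count of 17 is therefore a description. Weighting libraries by their own spread, chosen after seeing the data, called 17 higher (582 genes, 3.99%). These were the same segments except that Igkv2-112 stood in place of Igkv4-61, so the same limit applies and they add no separate support.

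SCG2 knockout against LILRB4 gave no call over all genes (0.0% higher and 0.0% lower) and none among the 155 by limma, and edgeR gave none either, while DESeq2 called 8 genes higher (0.12%) and 174 lower (2.61%). DESeq2 gave an adjusted p for only 3 of the 155 segments in this comparison and called none of these 3, so it says nothing of the rest. At an unadjusted p under 0.05, limma gave 397 genes with higher and 881 with lower values, with 11 and 15 of the segments. Ighv14-4 and Ighv1-85 differed by -2.09 and -1.62, the same values as against WT since both groups were at 0, and their limma adjusted p was 0.123. Without LILRB4 replicate 2, 12 genes were lower in SCG2 knockout (0.0823%), and 11 of these 12 were immunoglobulin V segments, led by Igkv8-18 (-5.11, limma adjusted p = 1.32e-06), Ighv9-1 (-5.03, limma adjusted p = 0.000166) and Ighv8-12 (-3.99, limma adjusted p = 0.000445). Here too these 3 were listed through LILRB4 replicates 1 and 3 alone, and the library where they were at 0 was left out. The same holds at least for Ighv5-9, Ighv5-9-1, Igkv6-32 and Ighv1-54 among the 11, and Ighv1-85 was listed through LILRB4 libraries alone. The count of 11 and these values are therefore a description. Without LILRB4 replicate 3, Igkv9-124 alone of the segments was lower (-2.46, limma adjusted p = 0.0333). It was listed through LILRB4 replicates 1 and 2 alone, and the LILRB4 library where it was lowest was left out. This value too is therefore a description. With libraries weighted by their spread, 12 genes were higher (0.0823%) and 31 lower (0.213%), with 2 and 3 of the segments. This comparison and the last share the LILRB4 libraries.

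SCG2 knockout against WT gave no limma call either (0.0% higher and 0.0% lower) and none by edgeR, while an unadjusted p under 0.05 was met by 992 genes with higher and 880 with lower values, 4 and 0 of them segments. DESeq2 called 82 genes higher (0.61%) and 30 lower (0.223%), with 1 segment among the lower, Igkv4-59. It gave an adjusted p for 97 of the 155 segments. Igkv4-59 had 0, 0 and 0 reads in SCG2 knockout, 52, 0 and 65 in LILRB4, and 244, 0 and 0 in WT, so all its WT reads were in replicate 1. With libraries weighted by their spread, 875 genes were higher (6.0%) and 536 lower (3.68%), 7 and 0 of them segments. Over the 155 segments the median log2 difference was 0.38 in LILRB4 against WT, -0.13 in SCG2 knockout against LILRB4 and 0.20 in SCG2 knockout against WT, where all 14574 genes had medians of 0.00399, -0.00201 and -0.0115. The median standard error was 0.767 for a segment against 0.185 over all genes.

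Counts of segments whose groups did not overlap stayed below those of all genes. In LILRB4 against WT, 5 segments (3.23%) had all LILRB4 values above all WT values and 3 (1.94%) below, where 10.7% and 12.2% of all genes did. In SCG2 knockout against LILRB4 there were 7 segments (4.52%) above and 7 below, with 6.18% and 8.98% of all genes. In SCG2 knockout against WT there were 7 above (4.52%) and 1 below (0.645%), with 10.9% and 10.6% of all genes.

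Genes of antibody-making cells were read beside the segments. Jchain, which links IgM and IgA into polymers and marks plasma cells, had 14.7, 8.47 and 26.2 FPKM in SCG2 knockout, 27.0, 1.97 and 29.1 FPKM in LILRB4, and 20.9, 2.51 and 4.23 FPKM in WT. Mzb1, a chaperone of antibody assembly in plasma cells and marginal zone B cells, had 1.21, 2.26 and 3.64 FPKM in SCG2 knockout, 4.77, 0.605 and 5.39 FPKM in LILRB4, and 4.17, 0.505 and 0.591 FPKM in WT. Both were lowest in LILRB4 replicate 2 and WT replicates 2 and 3, the libraries with the least immunoglobulin RNA. Irf4, Pim2 and Eaf2 of the plasma cell list were lowest there too, but others of the list were not. Fkbp11 (8.51 and 6.93 FPKM) and Txndc5 (42.1 and 39.2 FPKM) were highest in WT replicates 2 and 3, and Tnfrsf13b in LILRB4 replicate 2 (8.66 FPKM). Of the 14 plasma cell markers, 12 were tested and 0 passed in any comparison. The most abundant of them, Creld2, Xbp1, Sdc1 and Txndc5, are also expressed by other cells, and the summed level of the list was even, at 282, 265 and 242 FPKM in SCG2 knockout, 313, 242 and 294 FPKM in LILRB4, and 245, 246 and 204 FPKM in WT. Tnfrsf17, the plasma cell survival receptor, reached 0.858 FPKM at most.

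Markers of B cells themselves were low, none of them above 3.27 FPKM. The 17 markers summed to 7.20, 8.21 and 11.3 FPKM in SCG2 knockout, 14.8, 5.48 and 16.8 FPKM in LILRB4, and 10.6, 4.73 and 4.80 FPKM in WT. Like the immunoglobulin sum, this was highest in SCG2 knockout replicate 3, LILRB4 replicates 1 and 3 and WT replicate 1. It was lowest in LILRB4 replicate 2 and WT replicates 2 and 3. Not all markers followed, as Bank1 was highest in LILRB4 replicate 2 (0.360 FPKM) and Ebf1 lowest in SCG2 knockout replicate 1 (1.02 FPKM). Ms4a1, which codes for CD20, did not exceed 0.342 FPKM. Cd79a and Cd79b, the signalling chains of the B cell receptor, reached 3.27 and 2.59 FPKM, both in LILRB4 replicate 3. Of the 17, 8 were tested and 0 passed. The part that such cells have in the segment levels was not tested.

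The recombinase that joins segments was at or near 0. Rag2, part of the recombinase that joins the segments, and the surrogate light chain genes Vpreb2 and Igll1 of B cell precursors had 0 reads in every library, and Rag1 stayed at or below 0.0166 FPKM. Vpreb1, the remaining surrogate light chain gene, had 0, 0 and 0.305 FPKM in SCG2 knockout, 0.101, 0.141 and 0 FPKM in LILRB4, and 0.311, 0 and 0 FPKM in WT. Dntt, which adds bases at the joints, was detected in all libraries, with 2.36, 1.04 and 0.573 FPKM in SCG2 knockout, 3.69, 0.0198 and 2.65 FPKM in LILRB4, and 1.01, 0.234 and 0.434 FPKM in WT. Bcl6, a transcription factor of germinal centre B cells that other cells also express, had 8.57, 10.01 and 9.85 FPKM in SCG2 knockout, 10.05, 6.98 and 8.73 FPKM in LILRB4, and 9.03, 6.65 and 7.82 FPKM in WT. Of the germinal centre list 0 of 7 tested genes passed, nor did any of the 7 tested genes of segment joining, led by the end-joining genes Xrcc6 and Xrcc5.

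Receptors that bind antibody were abundant, as in monocytes generally. Fcer1g, the signalling chain shared by activating Fc receptors, had 225, 219 and 179 FPKM in SCG2 knockout, 322, 443 and 385 FPKM in LILRB4, and 254, 537 and 276 FPKM in WT. Fcgr3, a low-affinity IgG receptor, had 129.8, 119 and 85.9 FPKM in SCG2 knockout, 195, 331 and 209 FPKM in LILRB4, and 151, 273 and 174 FPKM in WT. All 3 SCG2 knockout values lay below all values of the other groups for both genes, and neither passed the test (SCG2 knockout against LILRB4, log2 difference -0.88, SE 0.28, limma adjusted p = 0.452, and -1.11, SE 0.29, limma adjusted p = 0.344). Of the 11 receptor genes, 7 were tested and 0 passed in any comparison, and Pigr, the epithelial transporter of IgA and IgM, had 0 reads. Among 5 cytokines that support B cells, 2 were tested, and Il6, a growth factor of plasma cells, was higher in LILRB4 than in WT, with 77.6, 58.0 and 99.2 FPKM in LILRB4 and 20.2, 27.2 and 20.2 FPKM in WT (log2 difference 1.73, SE 0.29, limma adjusted p = 0.0468). SCG2 knockout libraries had 47.2, 67.6 and 31.1 FPKM of Il6. For LILRB4 replicate 3 the FPKM of Il6 equals 6376 reads where the deposited count table gives 4376, and the test used the FPKM, the higher of these. The Il6 call did not hold with no filter, as TPM or with the replicate block, where no gene was called higher.

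Markers of other immune cells differed between libraries. The 13 T and NK cell markers summed to 276, 492 and 456 FPKM in SCG2 knockout, 483, 76.5 and 415 FPKM in LILRB4, and 298, 83.3 and 102 FPKM in WT. The 6 markers of plasmacytoid dendritic cells summed to 26.3, 23.6 and 19.3 FPKM in SCG2 knockout, 43.6, 5.56 and 46.5 FPKM in LILRB4, and 22.0, 5.52 and 9.49 FPKM in WT. The libraries with the least immunoglobulin RNA, LILRB4 replicate 2 and WT replicates 2 and 3, were also the lowest for both lists, but within SCG2 knockout the plasmacytoid sum was lowest in replicate 3, where the immunoglobulin sum was highest. In the same 3 libraries, LILRB4 replicate 2 and WT replicates 2 and 3, monocyte markers summed to 3180, 3091 and 2006 FPKM, against 1180 to 2542 FPKM in the other 6 libraries. The 8 neutrophil markers summed to 37.3, 26.2 and 22.5 FPKM in SCG2 knockout, 59.7, 201 and 85.9 FPKM in LILRB4, and 25.0, 57.2 and 24.8 FPKM in WT, and Ly6g, their defining marker, did not exceed 0.198 FPKM. The neutrophil sum was highest in LILRB4 replicate 2, the library with the least immunoglobulin RNA. No gene of these 4 lists passed the test in any comparison, and the part of such cells in the immunoglobulin levels was not tested.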

How the data were processed

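The authors deposited raw counts for 9877 protein-coding genes, which hold 0 immunoglobulin segments, and FPKM values with gene lengths for 54532 genes, per the file headers. HISAT2 2.0.5 and featureCounts 1.5.0-p3 were used, per the submitters' processing notes; the sources used here do not give the genome build, annotation, strand setting or treatment of reads with several matches. Scaling each FPKM by its gene's length and by a factor for each library (from genes in both tables) gave whole reads for 100% of 490788 values above 0 within 0.01, here called reads. Antisense or overlapping transcripts could share reads.

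Log2(FPKM + 1) was fitted with limma 3.58.1 (R 4.3.3; trend, robust) on 14574 genes reaching 1 FPKM in a library, over all 9 libraries with 6 residual degrees of freedom, and p-values were adjusted by Benjamini-Hochberg at 0.05. The fit was tested on simulated data. edgeR 4.0.16 (quasi-likelihood) and DESeq2 1.42.0 on recovered reads, other filters, scalings and left-out libraries were alternatives. Within groups at most 1.35% of genes had equal reads in a pair, so no library was a copy of another in its group. Pairs across groups were not compared in this way, and equal reads cannot show partly mixed samples. Shares have 95% Wilson intervals. Sequences, identities and letter searches used Python 3.11.15 and biopython 1.88 on GENCODE M21.

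Members, gene lists and alternatives were chosen with earlier results of these data known. Segments named are all C, J and D members where they carry results, the 5 V segments with the highest mean FPKM per locus, the leading V segment of each library, called members, and the neighbours of the threshold. Ighv12-3 and Igkv4-91, Ighv13-2, Igkv8-28, Igkv4-59 and segments named for a left-out library were added after their values were seen. Some genes of these lists are not reported here.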

Additional observations from a re-analysis of the deposited data

How the results depend on the processing

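LILRB4 against WT gave 67 genes higher and 8 lower, with 2 segments higher. It gave 0, 0 and 0 with no filter, as TPM, with the replicate block, and with WT replicate 1 as the lone WT library, whose spread is then assumed from the other groups. Lower genes were 5 at a mean of 0.5 FPKM or more and 4 without robust fitting, and quantile normalization gave 40 higher and 3 lower. edgeR gave 135 and 24 with 0 segments, and DESeq2 676 and 294 with 6 segments higher and 3 lower. Array weights gave 582 and 353 with 17 segments higher. SCG2 knockout against LILRB4 (0 calls) gave 8 higher and 174 lower by DESeq2, 1 higher with WT replicate 1 alone, and 12 and 31 with array weights (2 segments higher, 3 lower). SCG2 knockout against WT (0 calls) gave 82 and 30 by DESeq2 (1 segment lower), 1 higher with WT replicate 1 alone, and 875 and 536 with array weights (7 segments higher). The lone WT library and array weights were chosen after seeing the data.

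Leaving out 1 library gave 0 to 241 genes higher, 0 to 41 lower and 0 to 17 segments higher in LILRB4 against WT. It gave 0 to 2 genes higher, 0 to 12 lower and 0 to 11 segments lower in SCG2 knockout against LILRB4, and 0 in SCG2 knockout against WT. Ighm then ran from -0.18 to 2.21 in LILRB4 against WT and from -0.91 to 1.48 in SCG2 knockout against LILRB4, and Igkc from -1.05 to 1.08 in that comparison too. In SCG2 knockout against LILRB4, Igkc was -0.33 by edgeR, -0.36 by DESeq2 and -0.85 with array weights, where Ighm was -0.56. With WT replicate 1 alone, LILRB4 against WT gave -1.10 for Ighm and -1.09 for Igkc, and SCG2 knockout against WT -0.43 and -0.73. The cause was not tested. Same-numbered libraries correlated at -0.365 to 0.450 in 9 pairs, 3 over 0.1, and 5 of 9 libraries correlated best with their own number. The highest values of all were between LILRB4 and WT, for replicate 1 (0.450) and replicate 2 (0.446). Whether the numbers pair the libraries was not tested further. Segments with few reads are limited by depth.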
